A study of Homo sapiens with 6 samples.

Results

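Full dexamethasone, partial ethanol regions are stretches of accessible chromatin that had a called peak in all 3 libraries of dexamethasone-treated cells and in only 1 or 2 of the 3 libraries of ethanol-treated cells. Of 81216 merged regions, 3582 (4.41%) were of this kind. Regions were built by merging peaks of the 6 lists that overlapped by at least 1 bp, and a library was taken to call each region that held one of its peaks. The opposite class, full ethanol and partial dexamethasone, held 5374 regions (6.62%) and is called the mirror class. The members were chosen by the peak calls in both treatments, so counts and strengths that contrast the treatments in the same libraries are given as a description, with no test.

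The cells were A549, an established line from a human lung adenocarcinoma. Dexamethasone-treated cells had received 100 nM of the drug for 1 h, and the vehicle cells 0.02% ethanol for 1 h, with 3 libraries each, numbered 1 to 3. Whether the libraries stem from separate cultures is not in the labels, and their spread may be technical. No gene was assigned to a region, and the markers of the line were not checked, because no hg19 annotation or genome was used here.

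Dexamethasone is a synthetic glucocorticoid. It binds the glucocorticoid receptor, a transcription factor that then enters the nucleus and binds DNA, often at sites that are already accessible and sometimes at sites that open after binding. DNase I cuts DNA most readily where nucleosomes are displaced, so a DNase-seq peak marks accessible chromatin such as a promoter or an enhancer. A peak sums over a whole culture: more cells with an open site and a more open site in each cell cannot be told apart.

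The lists held 58360, 60646 and 58677 peaks for dexamethasone replicates 1 to 3 and 58281, 60453 and 61344 for ethanol replicates 1 to 3. Peak strength is given as a percentile of −log10 q within a library's own list, where 100 is the strongest peak, and as the authors' fold enrichment over the background of the same library. Read depth is unknown. A site without a call may still be open, with a signal below what the peak caller accepted.

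Members were mostly weak peaks. Their median percentile was 26.2, 28.4 and 27.1 in dexamethasone libraries 1 to 3, and 23.9, 24.5 and 26.9 in the ethanol libraries 1 to 3 that called them. The 2 ranges overlapped. Where it was called, a typical member thus lay in the lower part of a list. The fold enrichment had medians of 5.61, 5.75 and 5.50 with dexamethasone and of 5.41, 5.41 and 5.52 with ethanol.

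In the middle of the distribution, members and mirror regions differed little in strength. The median percentile in the fully called treatment was 27.2 ± 1.1 for members and 28.2 ± 1.4 for mirror regions (SD over the medians of n = 3 libraries each). The difference was smaller than the spread between libraries. The fold enrichment in that treatment was 5.62 ± 0.13 for members and 5.69 ± 0.09 for mirror regions (SD, n = 3 libraries each). Single peaks of the fully called treatment were 252.7 ± 3.8 bp wide in members and 252 ± 4.4 bp in mirror regions (SD, n = 3 libraries each). The merged regions had median widths of 325.5 bp for members and 316 bp for mirror regions, with quartiles at 285 and 417 bp for members and at 284 and 379 bp for mirror regions.

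Strength was far higher just above the upper limit of the rule than within it. Regions called in all 3 dexamethasone libraries had a median dexamethasone percentile of 24.7 with 0 ethanol calls (897 regions, just outside), 24.3 with 1 (999 members), 28.7 with 2 (2583 members) and 64.5 with 3 (39934 regions, just outside). The ethanol percentiles of the same groups were 17.1 with 1 call, 26.6 with 2 and 65.3 with 3. Members called in 1 ethanol library therefore showed the wider distance between the treatments, 5.60 percentile points in the median member, against 1.02 points for members called in 2. The mirror class had the same order, with 3.37 points for 1 dexamethasone call and 1.40 points for 2, so this is not particular to members. The dexamethasone percentile differed little between 0 and 2 ethanol calls and was far higher with 3.

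The class split unevenly over the ethanol libraries. Ethanol replicate 1 lacked a peak in 1826 members (51.0%), replicate 2 in 1369 (38.2%) and replicate 3 in 1386 (38.7%). The most frequent pattern, a peak in ethanol replicates 2 and 3 but not 1, accounted for 1146 members (32.0%). Ethanol replicate 1 had the shortest list. With every list kept to its 58281 strongest peaks, the length of that list, the 3 ethanol libraries lacked 45.7%, 39.5% and 43.2% of the members, so their shares lay closer together.

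The size of the class relative to the mirror class was also measured in lists of equal length. Members were 0.667 times as many as mirror regions with the lists as deposited (3582 against 5374), 0.717 times with lists of one length (3639 against 5073) and 0.785 times with the strongest 40000 peaks of each list (2566 against 3270). The mirror class thus stayed the larger at every list length tried, by a smaller margin than in the full lists. The ratio was lowest for regions with 2 partial calls, 0.652 in the full lists and 0.695 at one length, and 0.708 and 0.780 for regions with 1. Leaving out 1 library changes the rule itself, since the treatment that lost it then needs fewer calls: without 1 dexamethasone library the ratio was 1.13 to 1.80, and without 1 ethanol library 0.263 to 0.383.

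**Figure D1:**
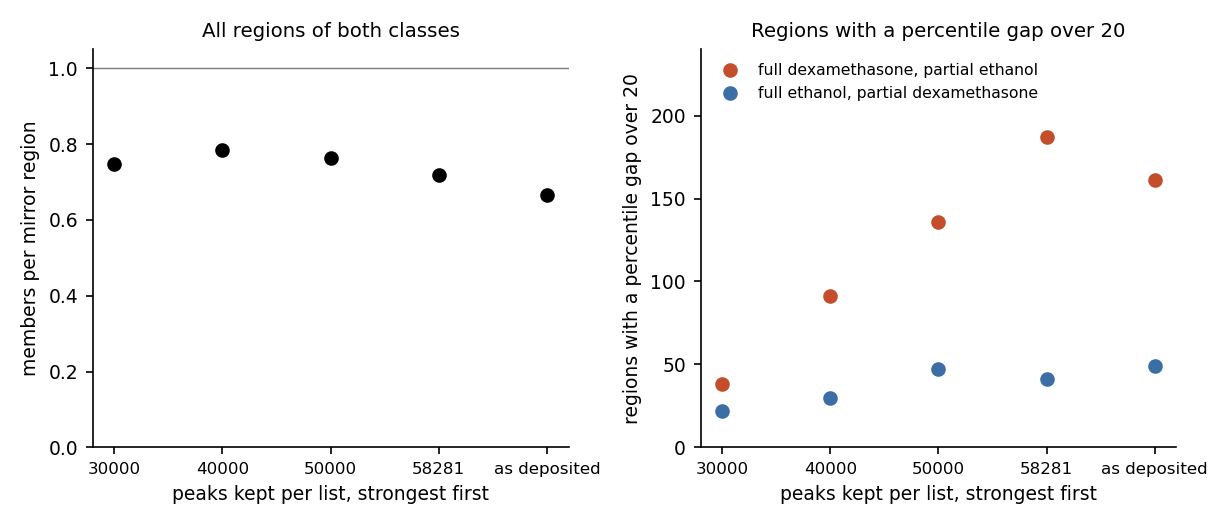
Left, the number of members per mirror region, and right, the number of regions of each class with a percentile gap over 20, for lists kept to their strongest 30000, 40000, 50000 or 58281 peaks and as deposited (x axis, categories not to scale). The ratio lies below 1 at all 5 lengths, whereas members with a gap over 20 outnumber such mirror regions at all 5. Percentiles were ranked anew within each cut list, so a gap over 20 is not the same step at each length.

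The upper end of the class looked different from its middle. Members were fewer than mirror regions in each band of 10 percentiles up to 60, with 152 members against 220 mirror regions between the 50th and 60th percentiles. Above 60 the order was the other way round, with 55 against 28 between 60 and 70, 18 against 1 between 70 and 80, and 3 against 0 between 80 and 90. In all, 76 members (2.12%) and 29 mirror regions (0.54%) had a mean percentile over 60 in the fully called treatment. Members made up 0.967% of regions called in 3 dexamethasone libraries between 60 and 70, and 0.326% between 70 and 80. Mirror regions made up 0.492% and 0.018% of those called in 3 ethanol libraries. Dexamethasone-only regions, outside the class, numbered 20, 9 and 1 in the bands from 60 to 90, and ethanol-only regions 0 in each. The upper end was thus not particular to members. Over the 50th percentile there were 228 members (6.37%) and 249 mirror regions (4.63%), where 63.2% of all regions called in 3 dexamethasone libraries and 62.4% of those called in 3 ethanol libraries exceeded that limit. With lists of one length these counts were 221 members and 199 mirror regions, with the strongest 40000 peaks 104 and 60, with summits joined within 100 bp 774 and 907, and with a cover of 50% of the region 848 and 1143. The order over the 50th percentile thus turned with the setting. Percentiles were ranked anew within cut lists, so the same limit stands for a stronger peak there than in the full lists. With 1 library left out the counts were 124 to 305 members and 127 to 461 mirror regions, the fewest members and the most mirror regions without ethanol replicate 1. The 99th percentile of strength was 70.7 ± 2.5 for members in dexamethasone libraries and 64.4 ± 2.4 for mirror regions in ethanol libraries (SD, n = 3 libraries each), and the library values, 68.3 to 73.2 and 62.5 to 67.1, did not overlap.

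**Figure D2:**
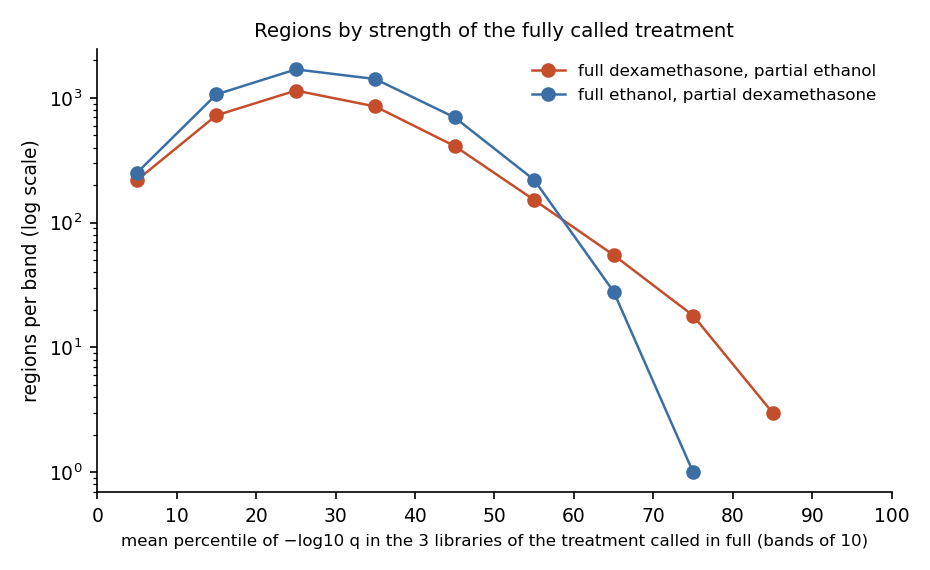
Number of regions (y axis, log scale) in bands of 10 percentiles of mean strength in the treatment called in full (x axis), for members and for the mirror class; bands with 0 regions are not drawn. The lines cross near the 60th percentile: 55 members and 28 mirror regions lie between 60 and 70, and 18 members and 1 mirror region between 70 and 80.

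For each member the gap between the treatments was taken as its lowest dexamethasone percentile minus its highest ethanol percentile. All dexamethasone percentiles exceeded all ethanol percentiles in 829 members (23.1%), whereas the values overlapped in 2753. Across all regions called in 3 dexamethasone and at least 1 ethanol library the share was 6.57%. The corresponding separation was seen in 969 mirror regions (18.0%), against 7.78% of all regions called in 3 ethanol and at least 1 dexamethasone library. With 1 or 2 values on one side instead of 3, separation is easier to reach, so these shares are not set against each other further.

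More members than mirror regions had a wide gap. A gap over 20 percentile points was seen in 161 members (4.49%) and 49 mirror regions (0.912%), and a gap over 30 in 88 and 6. Across regions with full calls in one treatment and at least 1 call in the other, gaps over 20 made up 0.6% in the dexamethasone direction and 0.183% in the ethanol direction, and gaps over 30 made up 0.31% and 0.0221%. Among regions called in all 6 libraries, outside the class, 100 had a gap over 20 towards dexamethasone and 34 towards ethanol. The limits of 20 and 30 were chosen after the values were seen, and the calls that define the classes enter the same contrast.

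The fold enrichment gave the same order. It comes from the same peaks and libraries as the percentiles, so it is no separate support. Each dexamethasone fold was more than 1.5 times each ethanol fold in 60 members, and each ethanol fold more than 1.5 times each dexamethasone fold in 4 mirror regions. Over all regions with full calls in one treatment and at least 1 in the other, these shares were 0.184% and 0.011%. A factor over 2 was reached by 7 members and 0 mirror regions, and its share over all such regions was not computed.

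The count of wide gaps depended on which libraries entered. Same-numbered libraries of the 2 treatments varied together weakly. Counting by numbered pairs (a replicate block) gave 206 members and 102 mirror regions with a gap over 20. With 1 library left out there were 140 to 273 members and 83 to 242 mirror regions, the most members without dexamethasone replicates 1 (272) and 3 (273). Members were fewer than mirror regions without ethanol replicate 1 (140 against 242) and more numerous in the other 5 cases. Without an ethanol library the mirror class needs only 2 ethanol calls, so these counts are not like for like. With the strongest 40000 peaks of each list there were 91 and 30 regions, and with the strongest 30000 there were 38 and 22. Percentiles were ranked anew within these cut lists, so a gap over 20 is not the same step in them.

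**Figure D3:**
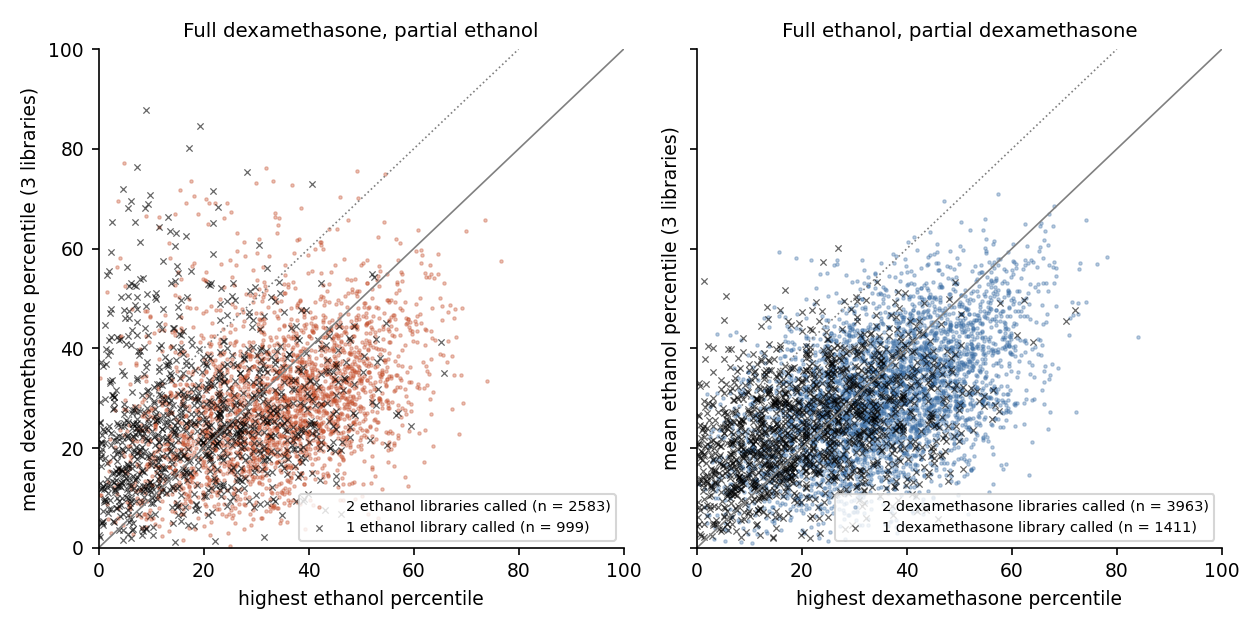
Mean percentile in the 3 libraries of the fully called treatment (y axis) against the highest percentile in a library of the partly called treatment (x axis) for 3582 members (left) and 5374 mirror regions (right), 1 point per region; the solid line marks equal values and the dotted line a difference of 20. Points far above the dotted line at the left edge, up to a mean percentile of 87.8, are seen for members. The highest mirror region, at 71.0, has a highest dexamethasone percentile of 57.35 and lies below the dotted line.

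A measure that the choice of regions had not used was obtained from held-out libraries. For each replicate number, the classes were rebuilt from the other 4 libraries (2 of 2 calls in one treatment, 1 of 2 in the other), and the 2 libraries with that number were then examined. Regions chosen as full dexamethasone and partial ethanol were called in 65.7%, 78.1% and 64.8% of cases in the held-out dexamethasone library (numbers 1 to 3) and in 59.3%, 69.1% and 67.3% in the held-out ethanol library. Dexamethasone was higher in numbers 1 and 2 and lower in number 3. The mean difference of 4.32 ± 6.06 points (SD, n = 3 held-out pairs) was smaller than its spread with the lists as deposited. With lists of one length the differences were 5.23, 8.84 and 1.72 points for numbers 1 to 3, positive in all 3, and their mean of 5.26 ± 3.56 points (SD, n = 3) exceeded its spread. With each library held out alone the difference was −4.16 points. The rules for holding out a dexamethasone or an ethanol library then differ, so this value is not like for like. By pairs the mean difference for the whole class was thus positive in both list settings, but its standing against the spread changed. The sign of number 3 changed as well. No change of direction is drawn from holding out each library alone, because its rules differ between the treatments. With the lists as deposited, regions called in both held-out libraries were also compared. Their percentile was higher in dexamethasone in 819 of 1437, 1125 of 1905 and 992 of 1824 cases (numbers 1 to 3).

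Held-out calls for the mirror class leaned to ethanol in each pair. Mirror-chosen regions were called in 60.8%, 73.3% and 64.6% of cases in the held-out dexamethasone library and in 68.9%, 80.8% and 75.3% in the held-out ethanol library. The difference of dexamethasone minus ethanol was −8.74 ± 1.66 points (SD, n = 3) by pairs. It was −0.44 points with each library held out alone, again under rules that differ between the treatments. Over all regions called in exactly 3 of the 4 choosing libraries, whichever treatment was full, the held-out dexamethasone libraries called 62.7%, 75.2% and 64.7% and the held-out ethanol libraries 65.2%, 76.1% and 71.5%. The held-out ethanol library was the higher in all 3 pairs over these regions. They are both chosen classes put together, with the mirror class the larger, so they are no separate baseline.

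Held-out calls separated the regions by the width of the gap. Where the 4 choosing libraries showed no gap, the held-out dexamethasone library called 67.3 ± 8.2% and the held-out ethanol library 68.1 ± 6.6% (SD, n = 3 pairs). With a gap of 10 to 20 these shares were 75.2 ± 6.4% and 61.7 ± 3.4%, and with a gap of 20 to 30 they were 85.0 ± 4.6% and 62.7 ± 4.2% (SD, n = 3 each). With a gap over 30, 81 of 82, 110 of 112 and 141 of 145 regions had a peak in held-out dexamethasone libraries 1 to 3, against 37 of 82, 66 of 112 and 85 of 145 in held-out ethanol libraries 1 to 3. The dexamethasone values, 97.2 to 98.8%, lay above the ethanol values, 45.1 to 58.9%, without overlap.

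The strength of held-out peaks pointed the same way. For a choosing gap over 30, regions called in both held-out libraries had a higher percentile in dexamethasone in 34 of 37, 57 of 66 and 73 of 84 cases. Their median difference was 33.8, 29.95 and 31.3 percentile points for numbers 1 to 3. Regions called in the held-out dexamethasone library alone numbered 44, 44 and 57, and in the held-out ethanol library alone 0, 0 and 1.

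Mirror-chosen regions with a gap over 30 were called in 36 of 64, 36 of 44 and 29 of 38 cases in the held-out dexamethasone library and in 57 of 64, 44 of 44 and 36 of 38 in the held-out ethanol library. For gaps over 20 the held-out difference, dexamethasone minus ethanol, was 31.8 ± 4.0 points for the full dexamethasone class and −15.5 ± 2.6 points for the mirror class (SD, n = 3). By pairs, these differences exceeded their spread and had one sign in all 3 pairs of each class. With each library held out alone the difference was 29.5 points for the full dexamethasone class and 2.00 points for the mirror class. The rules of that setting differ between the treatments, so the other sign of the mirror class there is not like for like. By pairs the mirror class had −16.6 points with lists of one length and −14.2 points with −log10 q of at least 5. An exact permutation test over 3 pairs cannot go below p = 0.25, and the 3 pairs share choosing lists, so no p-value is given. Regions had been merged with all 6 lists, the held-out ones included.

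**Figure D4:**
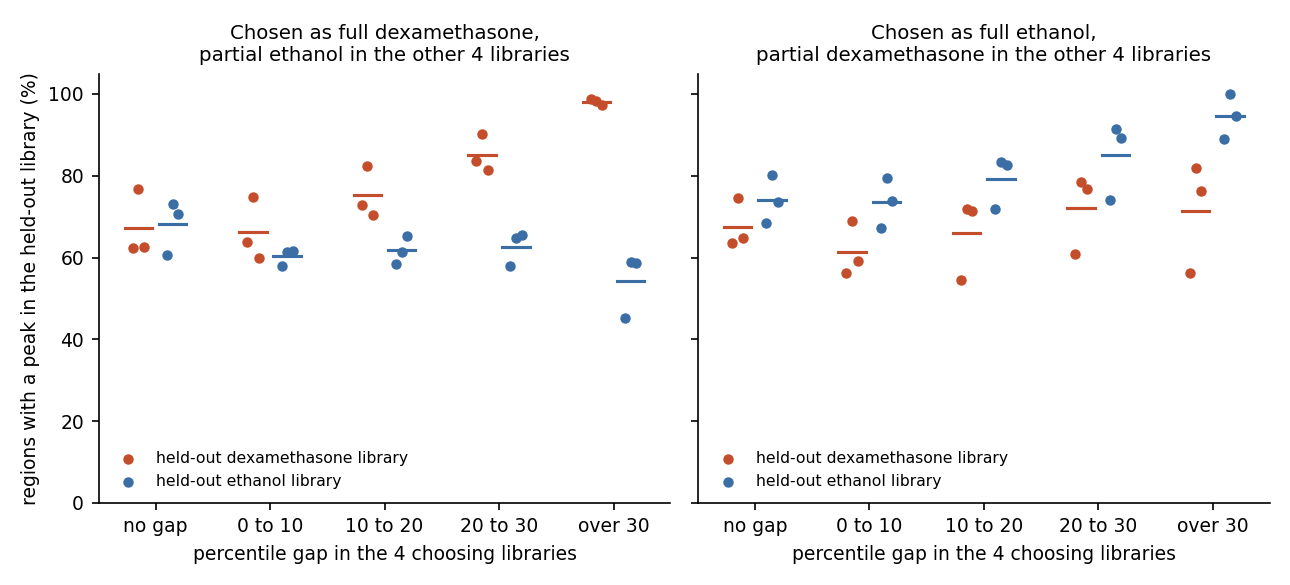
Share of regions with a peak in the held-out dexamethasone and ethanol libraries (y axis, percent; 1 point per replicate number, lines are means of 3) by the percentile gap in the 4 libraries that chose them (x axis). On the left the means of dexamethasone and ethanol lie together at no gap, 67.3% and 68.1%, and apart at a gap over 30, 98.1% and 54.2%; on the right the mean of dexamethasone is the lower in each band.

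The 161 members with a gap over 20 had wider peaks with dexamethasone. They were chosen by peak strength in these same libraries, as were the mirror regions below. The contrasts in width and fold are thus a description of that choice. Their peaks had median widths of 377, 362 and 387 bp in dexamethasone libraries 1 to 3 and of 228, 222 and 245 bp in the ethanol libraries that called them. Median folds were 7.94, 7.74 and 7.12 with dexamethasone and 4.36, 4.78 and 4.73 with ethanol. In the median the ethanol peaks were therefore near the weakest and narrowest that were called, at percentiles of 7.92, 10.9 and 11.5. The highest ethanol percentiles among them were 49.3, 34.4 and 40.7 in libraries 1 to 3. Of these members 90 were called in 1 ethanol library, 9.01% of members of that kind, and 71 in 2, or 2.75%.

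Mirror regions with a gap over 20 showed a smaller contrast in width. Their peaks measured 213.5, 217 and 222 bp in the dexamethasone libraries that called them and 285, 288 and 307 bp in ethanol libraries 1 to 3 (medians). Among regions over the 60th percentile, merged width had a median of 471.5 bp for 76 members and 362 bp for 29 mirror regions, and the fully called peaks one of 415.5 bp and 312 bp. In the bands below, the merged widths of members and mirror regions were 340 and 320 bp between the 40th and 60th percentiles, 310 and 307.5 bp between the 20th and 40th, and 357 and 338 bp up to the 20th.

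The strongest member called in 1 ethanol library was chr15:90355296-90355862 (hg19, as are all positions here). It stood at percentiles 90.0, 81.1 and 92.2 in dexamethasone libraries 1 to 3, against 9.01 in ethanol library 1 and no peak in ethanol libraries 2 and 3. Its fold was 9.43, 7.74 and 9.04 with dexamethasone and 3.24 in the ethanol library that called it. All 3 dexamethasone libraries placed it among their strong peaks, and its gap of 72.1 points was the widest of all members. The dexamethasone peaks were 552, 543 and 558 bp wide and the ethanol peak 303 bp.

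On chromosome 16, chr16:1985330-1985679 had the second highest mean percentile, with 83.2, 84.4 and 86.0 in dexamethasone libraries 1 to 3 and 19.2 in ethanol library 2 alone. Its fold of 12.4 ± 0.34 (SD, n = 3 dexamethasone libraries) stood against 4.96 in that ethanol library. The 3 dexamethasone values lay close together, the ethanol value far below. A similar pattern was seen at chr7:47797454-47797847, with 79.6, 79.3 and 81.8 with dexamethasone and 17.2 in ethanol library 2 alone.

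At chr2:121954909-121955609 the dexamethasone percentiles were 77.7, 73.6 and 78.1 and the ethanol percentile was 7.24, in library 1 alone. This member was broad, with peaks of 682, 678 and 663 bp after dexamethasone and 206 bp in the ethanol library. A region called in dexamethasone libraries only lay 11.8 kb away. The remaining 4 of the 8 leading members with 1 ethanol call lay at chr16:81638446-81638943, chr11:35929543-35929991, chr5:149127000-149127490 and chr1:156586216-156586617, with mean dexamethasone percentiles of 75.4, 73.0, 72.0 and 71.5. Libraries differed most at the chromosome 5 site, where dexamethasone library 3 stood at 54.0 and libraries 1 and 2 at 82.5 and 79.7.

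Among members called in 2 ethanol libraries, chr1:120574651-120575359 led. It stood at 77.4, 73.1 and 81.1 in dexamethasone libraries 1 to 3, against 0.124 in ethanol library 1, no peak in library 2 and 4.88 in library 3. Its ethanol peaks were 200 and 220 bp wide, and its dexamethasone peaks 679, 658 and 703 bp. The 2 ethanol calls were thus among the weakest of their lists. Next came chr9:123294647-123295125, with 75.1, 75.2 and 78.1 with dexamethasone and 31.8 and 2.33 in ethanol libraries 2 and 3.

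Not every leading member had a wide gap. At chr2:175701303-175701729 the percentiles were 75.4, 67.1 and 82.4 with dexamethasone and 51.1 and 54.6 in ethanol libraries 2 and 3, a gap of 12.6. Its dexamethasone fold of 12.6 ± 1.1 (SD, n = 3) was the highest mean among members, and the ethanol folds were 9.12 and 9.32. This site was a substantial peak in both treatments that ethanol library 1 alone lacked.

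Merging by 1 bp joined more than one summit in some members. Among the leading members with 2 ethanol calls, chr11:2799929-2800946 spanned 1018 bp, and its dexamethasone and ethanol summits lay 538 bp apart (median positions). Likewise chr3:12549386-12550275 spanned 890 bp with summits 229.5 bp apart. At these sites the ethanol and dexamethasone calls were not centred on the same position. The other leading members with 2 ethanol calls, chr20:9287210-9287585, chr7:130983000-130983481 and chr1:167105323-167105813, had mean dexamethasone percentiles of 73.6, 73.1 and 72.8 and summits 10.5 to 40 bp apart.

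**Figure D5:**
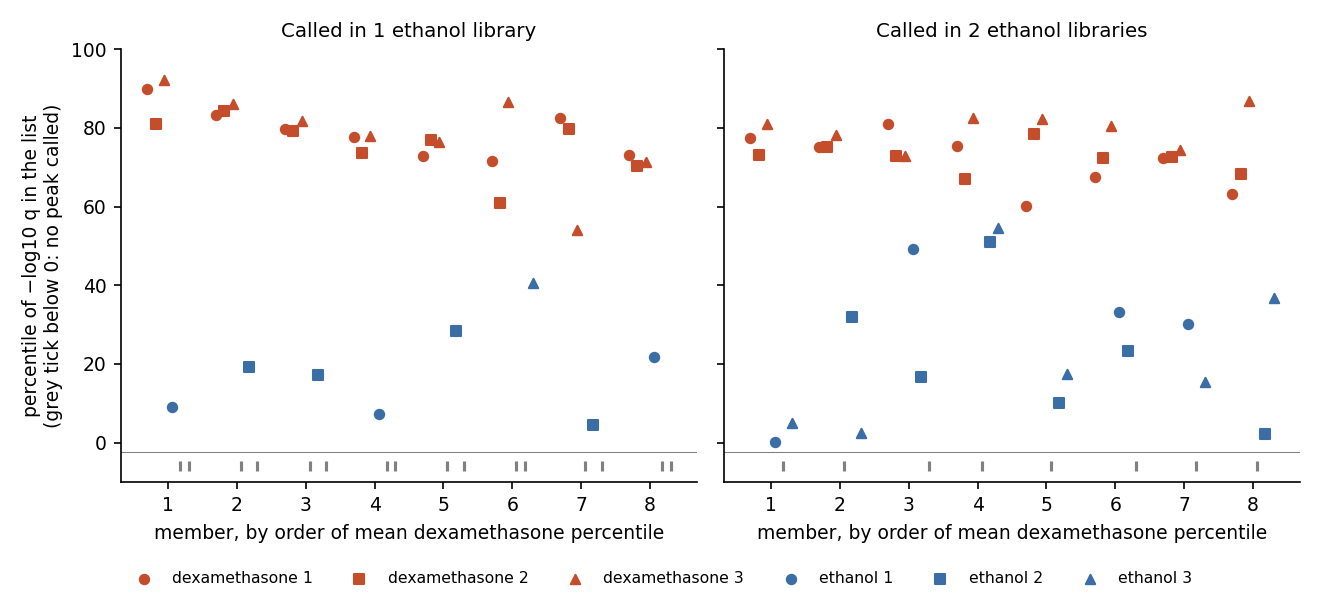
Percentile of −log10 q in each library for the 8 members with the highest mean dexamethasone percentile among those called in 1 ethanol library (left) and in 2 (right), in that order; grey ticks below 0 stand for libraries with no peak. All dexamethasone values lie above all ethanol values of the same member; the closest approach is member 4 on the right, 67.1 against 54.6.

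Summits in different libraries otherwise coincided. The median distance between dexamethasone and ethanol summits was 19.5 bp for members, 17 bp for mirror regions and 11 bp for regions called in all 6 libraries. It exceeded 150 bp in 104 members (2.90%), in 13 of the 161 members with a gap over 20 (8.07%), and in 100 mirror regions (1.86%). Summits of the 228 members over the 50th percentile lay over 150 bp apart in 13 cases, and those of the 249 such mirror regions in 0.

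The widest mean gaps were at sites already given and at chr16:10614338-10614825. That region stood at 72.6, 68.3 and 67.9 in dexamethasone libraries 1 to 3, against 3.76 and 0.644 in ethanol libraries 1 and 3. A peak of the ethanol library that lacked a call lay 0.828 kb from its edge.

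The leading mirror regions were weaker. With 1 dexamethasone call the highest mean ethanol percentile was 60.1, at a 320 bp region of chromosome 8. Dexamethasone library 3 stood at 26.8 there and ethanol libraries 1 to 3 at 39.7, 63.0 and 77.7, so its ethanol values were widely spread. The widest gap of the mirror class, 46.5 points, was at chr16:76944834-76945160, with 1.27 in dexamethasone library 2 and 50.5, 47.8 and 62.6 in ethanol libraries 1 to 3. With 2 dexamethasone calls the strongest was chr11:85555431-85555864, at a mean ethanol percentile of 71.0 and a gap of 8.30.

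Members lay at about the same distance from constitutive chromatin as mirror regions. Measured between centres, a region called in all 6 libraries lay at a median of 12.3 kb for members and 13.1 kb for mirror regions, and 43.9% and 42.4% lay within 10 kb of one. Members with a gap over 20 had a median of 10.04 kb, and mirror regions with such a gap 10.6 kb.

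Dexamethasone-only regions, those called in 3 dexamethasone and 0 ethanol libraries, lay near a larger share of the members with wide gaps than of all members. Such a region lay within 50 kb of 269 members (7.51%) and 351 mirror regions (6.53%). The share was 30 of 161 (18.6%) for members with a gap over 20 and 6 of 49 (12.2%) for mirror regions with a gap over 20. An ethanol-only region lay within 50 kb of 141 members (3.94%) and 170 mirror regions (3.16%). With a gap over 20 it was 12 of the 161 (7.45%) and 1 of the 49 (2.04%). The share near an ethanol-only region was thus also larger for members with wide gaps than for all members. No such share was computed over all merged regions. Shares of regions near others are descriptions and hold no spread between libraries.

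Where a call was missing, most regions had no peak of the same library within 500 bp. No such share was computed for regions outside both classes. Of the 4581 missing ethanol calls of members, 529 (11.5%) had a peak of that library within 500 bp of the region's edge, and the median distance was 7.82 kb. For the 6785 missing dexamethasone calls of mirror regions the share was 10.1% and the median 8.81 kb.

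Chromosomes held different shares of both classes. Members made up 2.77% of all regions on chromosome 19 and mirror regions 6.31%, giving 110 against 251. The ratio of members to mirror regions there was 0.438, the lowest of all chromosomes, and on chromosomes 4 and 20 it was 0.807 and 0.815. Chromosome 2 carried 24 of the 161 members with a gap over 20 (of 314 members), and chromosome 4 none of them (of 146 members).

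The longest run of members with steps of at most 50 kb lay on chromosome 5, between 149218822 and 149276157. It was picked after the values were seen, as the run with most members. Of 7 regions in these 57.3 kb, 6 were members. The strongest were chr5:149275475-149276157, at 66.5, 60.9 and 68.6 in dexamethasone libraries 1 to 3 and 2.45 in ethanol library 1 alone, and chr5:149237021-149237472, at 74.0, 65.2 and 53.6 with dexamethasone and 11.5 in ethanol library 3 alone. At chr5:149218822-149219121 the treatments overlapped, with 8.77, 55.7 and 53.8 with dexamethasone and 31.8 in ethanol library 2.

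The named member at chr5:149127000-149127490 lay at lower coordinates than this run. From its start to the end of the run there were 17 regions, of which 7 were members, 2 dexamethasone-only, 7 called in all 6 libraries and 1 called once in each treatment. None was called in more ethanol than dexamethasone libraries. Over all merged regions, 9.48%, 2.40% and 0.66% had 0 dexamethasone and 1, 2 or 3 ethanol calls. A further 3.29% and 1.74% had 1 dexamethasone call and 2 or 3 ethanol calls, and 4.88% had 2 and 3. Members made up 4.41% of all merged regions and dexamethasone-only regions 1.10%. The stretch was bounded by a named member and a run picked for its members. Members have more dexamethasone calls by definition, so these counts describe that choice. The mean dexamethasone percentile exceeded the mean ethanol percentile in 8 of the 15 regions called in both treatments: the 7 members and 1 of the regions called in all 6 libraries. In the other 6 regions called in all 6 libraries the mean ethanol percentile was the higher. Runs of at least 3 regions numbered 64 in the members and 137 in the larger mirror class, whose longest held 9 mirror regions of 19 regions on chromosome 19.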

How the data were processed

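DNase-seq libraries of A549 cells, 3 per treatment, entered as 1 deposited peak list each. The build was hg19 and the tools were MACS2 2.1.0, CASAVA 1.3, bedtools and Bowtie, per the submitters' processing notes, which give no settings. The authors deposited per peak a ratio (fold enrichment at the summit over the library's background, from the MACS2 column layout), −log10 p-value and −log10 q-value, a score that follows −log10 q times 10 and was not used, and a summit offset. The files hold no read counts, so depth is unknown.

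From these lists, regions, calls, percentiles (mean rank for ties; 41436 to 45865 peaks of a list shared their −log10 q with another), gaps, widths and distances (between centres, or from edges to the nearest peak of a library lacking a call) were computed with Python 3.11.15, NumPy 2.4.6 and pandas 2.3.3. Where a library had several peaks in a region, the strongest was used. Settings varied were the peaks admitted (−log10 q from 5 upward), lists of one length or of the strongest 30000, 40000 or 50000 peaks, summits joined within 100 bp, gaps of 100 bp merged, a cover of 50%, autosomes, other measures of strength and width, each library left out, and a replicate block. Merging and classes were tested on simulated lists. Positions count from 1.

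Members, lists, limits and alternatives were chosen with earlier results of these data known. Named regions were the 8 members each with 1 or 2 ethanol calls of highest mean dexamethasone percentile, 4 mirror regions each by ethanol percentile, and the 6 members with the largest gap between mean dexamethasone and highest ethanol percentile.

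Equal replicate numbers were treated as pairs: over regions called in all 6 libraries, deviations of the percentile from the treatment mean correlated at 0.218, 0.122 and 0.16 between same-numbered libraries, and at −0.179 to −0.000748 between others. For the fold, same-numbered libraries gave 0.126, 0.108 and 0.0936. Deviations from a treatment mean cancel over its libraries, so positive values between same-numbered libraries bring negative ones between others. The negative values are thus no separate support for the pairing. The labels do not state what a number marks.

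Motif searches, sequences and distances to genes need an hg19 genome or annotation and were not run.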

Additional observations from a re-analysis of the deposited data

How the results depend on the processing

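The number of members, 3582, stayed within 1.5 times that value in 12 of 16 alternatives; it was 1844 with the strongest 30000 peaks and 2122 to 5726 with 1 library left out. The members to mirror ratio, 0.667, was 0.717 at one list length, 0.785, 0.763 and 0.748 with the strongest 40000, 50000 and 30000 peaks, and 0.6999 with the replicate block. It ranged from 0.263 to 1.80 with 1 library left out, above 1 without dexamethasone replicate 1 (1.63), 2 (1.13) or 3 (1.80), where members need fewer calls by construction. The percentile difference, members minus mirror, was −0.96 and ranged from −3.92 to 1.51 with 1 library left out. The fold ratio, 0.987, then ranged from 0.927 to 1.02. The merged width difference, 9.5 bp, was 18 bp with summits joined or a cover of 50%, 1 bp with the strongest 30000 peaks and −6 to 21 bp with 1 library left out, negative without dexamethasone replicates 2 (−6 bp) and 3 (−1 bp). The cause was not tested.

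Under the replicate block, members numbered 5160 and mirror regions 7373, since a pair may then be called in neither treatment. Against the reported values, the block turned no direction of the class counts, their ratio or the percentile, fold and width differences. Every reported member and mirror region also meets the block rule, so the like direction is partly built in.

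The held-out difference for the whole class, 4.32 points, was −4.16 points with each library held out alone and no replicate block, where the rules for holding out a dexamethasone or an ethanol library differ. That setting gave −0.44 points for the mirror class, against −8.74 points by pairs. For mirror regions with a gap over 20 it gave 2.00 points, against −15.5 points by pairs. The signs differ, but the values are not like for like. For members with a gap over 20 the difference was 29.5 to 32.3 points in 3 alternatives. Alternatives with strongest 50000 or 30000 peaks were added after seeing the data. Read depth is unknown and limits every missing call.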
